A study of Mus musculus with 6 samples.

Results

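The genes of 9 core pluripotency factors (Pou5f1, Nanog, Sox2, Klf4, Esrrb, Prdm14, Tfcp2l1, Lin28a and Tdgf1) were chosen by name, by a rule that uses no measured value though with earlier results of these data known, from 22380 protein-coding genes of the mouse annotation. For each gene, the 2 kb tiles that overlapped its NCBIM37 (mm9) bounds with 5 kb on both sides were taken, 191 tiles in all. H3K9me2, H3K27me3 and H3K9me3 had been measured over the whole genome by chromatin immunoprecipitation with sequencing (ChIP-seq) in mouse embryonic stem cells (ESCs), in a study of how transposons are held silent when DNA methylation is lost. There were 2 genotypes. Dicer KO ESCs carried a constitutive CRISPR/Cas9 deletion of Dicer in a Dnmt1 loxP/loxP line and kept Dnmt1. Dicer KO/Dnmt1 cKO ESCs had in addition lost Dnmt1 by Cre recombination, which the methods induce with tamoxifen (4OHT). Both genotypes thus lacked Dicer, and neither set of 3 libraries stands for wild-type ESCs. Per the methods, cells were grown in serum with LIF, with or without feeders, and knockout lines were derived from single-cell colonies. How many clones the libraries stand for was not given. The labels name E14 as the background strain and the methods C57BL/6. The day after Dnmt1 deletion is not in the labels.

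Pou5f1 (OCT4), SOX2 and NANOG bind together at enhancers of ESCs and keep one another expressed. KLF4, ESRRB, PRDM14 and TFCP2L1 are DNA-binding factors that hold the naive state under LIF, while LIN28A is an RNA-binding protein that blocks let-7 maturation and Tdgf1 encodes CRIPTO, a co-receptor of NODAL. H3K27me3 is laid down by Polycomb repressive complex 2, mostly at CpG-rich promoters of developmental genes. H3K9me2 covers broad inactive regions and H3K9me3 marks heterochromatin and retroviral elements, and all 3 marks are in general sparse at active promoters.

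Each mark and genotype had 1 library, so differences between the genotypes are reported without a replicate check and without p-values. The 6 libraries held between 16834940 and 27162045 reads in tiles. A level is the mean number of reads per tile of a gene's window over the mean per tile of the whole library, so that 1 is the genome mean. Changes are given as the log2 of a window's share of the reads without Dnmt1 over its share with Dnmt1. Below, "without Dnmt1" stands for the Dicer KO/Dnmt1 cKO, and paired values give the Dicer KO first. Intervals in brackets are exact 95% intervals that cover counting error only. Reads can be copies from PCR, so the intervals may be too narrow even for that. Histone marks do not measure transcripts, so the cell type on the label could not be checked with them, and neither could the deletions. The Dnmt1 window went from 0.375 to 0.547 in H3K9me2, from 0.295 to 0.348 in H3K27me3 and from 0.537 to 0.491 in H3K9me3. The Dicer1 window went from 0.786 to 0.872, from 0.507 to 0.542 and from 0.695 to 0.749, the marks in the same order.

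All 9 genes were below the genome mean in H3K9me2 in the Dicer KO. In bulk chromatin a mark in a few cells and a low level in every cell cannot be told apart. Their levels ran from 0.207 at Sox2 to 0.867 at Prdm14 with a median of 0.596, so 0 of 9 lay above the genome mean, as against 31.8% of all protein-coding genes. Prdm14, Tfcp2l1 (0.827) and Esrrb (0.812) were nonetheless above the median of all genes, 0.749, and the Prdm14 interval (0.731 to 1.02) included the genome mean. In the Dicer KO/Dnmt1 cKO the range was 0.299 to 1.04, and only Tfcp2l1 lay above the genome mean (35.9% of all genes). H3K27me3 divided the genes. Lin28a (1.54), Prdm14 (1.42), Esrrb (1.38) and Klf4 (1.03) were above the genome mean in the Dicer KO, where 37.8% of all genes were, and the other 5 were between 0.250 at Tdgf1 and 0.806 at Sox2. The side of the mean depended on the window for some of them. With the gene bounds alone Klf4 was at 0.505 and Sox2 at 0.318, and with a 10 kb margin they were at 1.29 and 1.32. As the median tile of the window over the median tile with reads in the genome, Klf4 was at 0.842, Esrrb at 0.789 and Prdm14 at 1.00. Lin28a was above 1 and Pou5f1, Tfcp2l1, Nanog and Tdgf1 were below it under each of the 6 other settings tried. Without Dnmt1, Klf4 was just below the mean (0.95) and 3 genes were above it (37.4% of all genes). None of the 9 reached 2 times the genome mean, a level exceeded by 10.5% of all genes in the Dicer KO and 8.88% without Dnmt1. For H3K9me3, Nanog (1.34) and Tfcp2l1 (1.09) were above the genome mean in the Dicer KO (26.3% of all genes) and 0 of 9 were without Dnmt1 (27.6%). The side of the mean depended on the setting for Nanog. Its Dicer KO level was 0.951 with a 10 kb margin and 0.923 as a median over tiles, and above 1 under the other settings. Tfcp2l1 in the Dicer KO was above 1 under each setting. Medians of the 9 genes were 0.782 and 0.717 for H3K9me3, close to 0.783 and 0.797 over all genes.

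**Figure D1:**
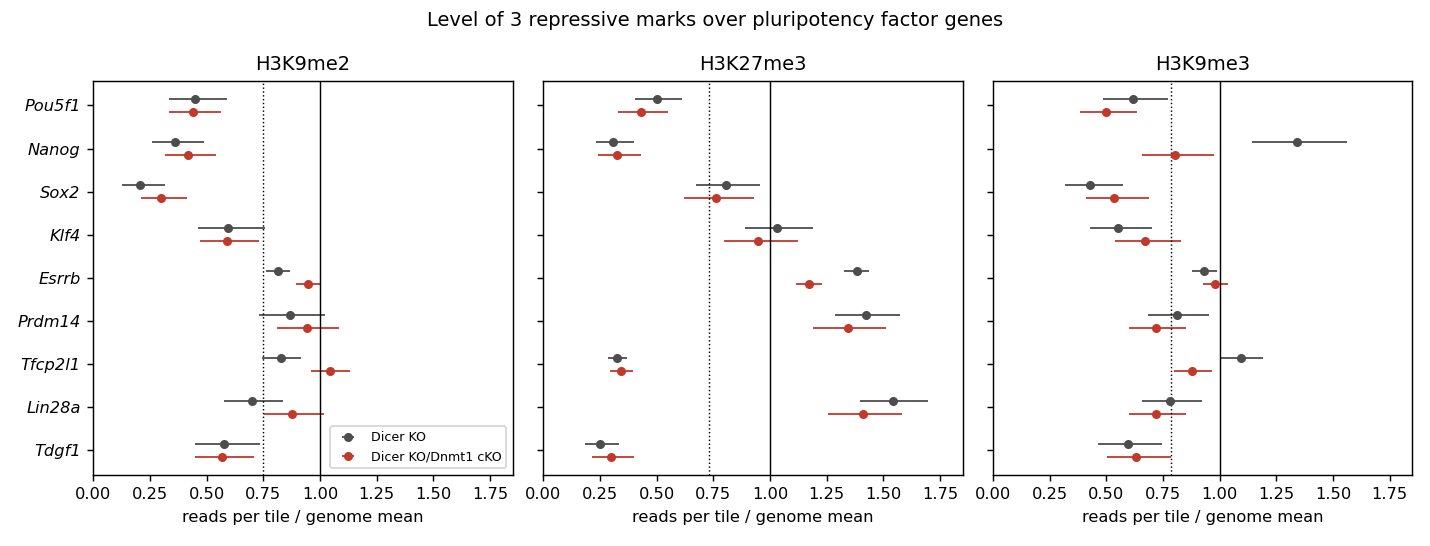
Level of each mark over the 9 genes (x axis, reads per 2 kb tile over the genome mean) in the Dicer KO (grey) and the Dicer KO/Dnmt1 cKO (red), with bars for the 95% counting interval, a solid line at the genome mean and a dotted line at the median of 22380 protein-coding genes in the Dicer KO. Every H3K9me2 point of the Dicer KO is below 1, and the H3K9me3 points of Nanog stand at 1.34 and 0.802.

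Pou5f1 (ENSMUSG00000024406.9, chr17:35642982-35647721, forward strand) was below the genome mean for every mark. H3K9me2 reads over its 9 tiles numbered 51 and 61, levels of 0.447 (0.333 to 0.587) and 0.439 (0.336 to 0.564). H3K27me3 levels were 0.500 and 0.430 from 92 and 62 reads, and H3K9me3 levels were 0.617 and 0.499 from 76 and 64 reads. The 2 genotypes' intervals overlapped for all 3 marks. The start tile held 10 H3K9me2 reads in each library and 19 and 12 H3K27me3 reads. In the Dicer KO, H3K9me2 was highest in the tile upstream of it (13 reads, 1.03), and H3K27me3 in the start tile (0.929). Without Dnmt1, H3K9me2 was highest at chr17:35648001-35650000 (12 reads, 0.777). H3K27me3 was then highest in the tile after the start tile (13 reads, 0.811). Tcf19 overlaps the same window.

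Nanog (ENSMUSG00000012396.5, chr6:122657507-122664651, forward strand) was low in 2 marks and high in H3K9me3. Its H3K9me2 levels of 0.359 and 0.417 and its H3K27me3 levels of 0.310 and 0.326 were between percentiles 9.96 and 17.5 of all protein-coding genes. By contrast its H3K9me3 level was 1.34 (1.14 to 1.56, 165 reads) in the Dicer KO, at percentile 95.1 of all genes, and 0.802 (0.655 to 0.973, 103 reads) without Dnmt1, at percentile 50.8. The H3K9me3 level of Nanog in the Dicer KO was 4.01 times the mean of its levels of the other 2 marks, the highest such ratio of any mark and gene among the 9.

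The H3K9me3 of Nanog lay at and before its start. For the Dicer KO, the tile with the annotated start (chr6:122656001-122658000) held 43 reads and the 2 tiles upstream of it held 45 and 20. The Dicer KO/Dnmt1 cKO had 24, 17 and 5 reads in these 3 tiles. The start tile alone was at 3.14 (2.28 to 4.23), percentile 99.7 of the start tiles of all genes, and at 1.68 (1.08 to 2.50) without Dnmt1. Over the 3 tiles, chosen after their values were seen, the level was 2.63 (2.16 to 3.18) and 1.08 (0.787 to 1.43), a log2 difference of -1.29 (-1.82 to -0.78). The 6 tiles after the start tile held 57 reads in each library, levels of 0.695 and 0.666 and a difference of -0.06 (-0.62 to 0.50). The same 3 tiles had 10 and 21 reads of H3K9me2 and 21 and 13 of H3K27me3, with levels between 0.263 and 0.453. The promoter inside the start tile is shown because POU5F1 and SOX2 are known to bind there in ESCs. The joined SOX-OCT motif, spelled here as CATTGT, then any 1 base, then ATGCAAA, was searched on both strands of 300-base promoters (250 bases before to 50 after the annotated start) and occurred in 1 of 22380, or 0.00447%, which was that of Nanog. Its 14 bases begin 75 bases before the annotated start and are in capitals below (chr6:122657257-122657556, NCBIM37, forward strand).
Nanog promoter: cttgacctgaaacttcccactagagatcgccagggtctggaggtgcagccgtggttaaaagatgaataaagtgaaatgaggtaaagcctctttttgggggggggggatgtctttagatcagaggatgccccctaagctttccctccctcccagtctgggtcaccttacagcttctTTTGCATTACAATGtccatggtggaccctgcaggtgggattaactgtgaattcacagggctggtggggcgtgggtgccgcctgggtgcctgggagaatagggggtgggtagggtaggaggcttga
The OCT letters ATGCAAA alone, which are part of the joined motif, occurred on either strand in the promoters of Nanog and Sox2 and in 4.40% of all promoters. A match is a string of letters, with no other spelling allowed, and was not tested as a binding site. The rarity of the joined motif thus holds for this exact spelling only.

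Sox2 (ENSMUSG00000074637.3, chr3:34548927-34551383, forward strand) had the lowest H3K9me2 of the 9 genes in both genotypes. Its 8 tiles held 21 and 37 reads, levels of 0.207 (0.128 to 0.316) and 0.299 (0.211 to 0.413), at percentiles 3.33 and 4.66 of all genes. The start tile (chr3:34548001-34550000), which holds 160 CpG dinucleotides, had 0 H3K9me2 reads in either library, which allows a level of up to 0.237 in the Dicer KO and 0.194 without Dnmt1 when 3 reads are taken as the limit of a count of 0, or 0.291 and 0.239 by the exact interval used elsewhere. H3K9me3 was also lowest there, with 2 and 4 reads. H3K27me3 over the window was 0.806 and 0.764 and sat mainly upstream, where the tile 6 kb before the start tile held 47 and 28 reads and the start tile 7 and 5. Sox2 lies within the noncoding gene Sox2ot. The promoters of Sox2 and Klf4 are printed as the most CpG-rich of the 9, with 25 and 40 CpG in 300 bases against a median of 11 over all promoters, each CpG in capitals (chr3:34548677-34548976, forward strand, and chr4:55545298-55545597, reverse strand, NCBIM37).
Sox2 promoter: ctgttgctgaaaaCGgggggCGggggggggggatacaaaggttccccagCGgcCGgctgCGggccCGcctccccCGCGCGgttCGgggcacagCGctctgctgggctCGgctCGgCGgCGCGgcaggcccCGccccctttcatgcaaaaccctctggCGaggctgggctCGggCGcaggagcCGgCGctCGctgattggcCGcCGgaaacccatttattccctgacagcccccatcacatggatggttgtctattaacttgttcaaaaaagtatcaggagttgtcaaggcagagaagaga
Klf4 promoter: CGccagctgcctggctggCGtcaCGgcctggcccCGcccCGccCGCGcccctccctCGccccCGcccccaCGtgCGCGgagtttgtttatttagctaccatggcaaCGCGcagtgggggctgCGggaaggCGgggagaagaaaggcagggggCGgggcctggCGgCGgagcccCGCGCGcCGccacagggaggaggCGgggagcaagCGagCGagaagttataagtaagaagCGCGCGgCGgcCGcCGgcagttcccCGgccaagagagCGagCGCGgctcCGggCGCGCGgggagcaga

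Klf4 (ENSMUSG00000003032.7, chr4:55540013-55545347, reverse strand) resembled Sox2 at its start. Its start tile, with 192 CpG, held 1 H3K9me2 read in each library, levels of 0.0789 (0.00200 to 0.439) and 0.0647 (0.00164 to 0.361). Start tiles this rich in CpG were low in general. The 3813 start tiles with at least 100 CpG had a median H3K9me2 level of 0.158 in the Dicer KO and 0.194 without Dnmt1, and 13.4% and 5.80% of them held no read. They were low in the other marks too, with medians of 0.342 and 0.374 for H3K27me3 and 0.439 and 0.421 for H3K9me3. The whole Klf4 window had H3K9me2 levels of 0.596 and 0.590, H3K27me3 levels of 1.03 and 0.95 and H3K9me3 levels of 0.552 and 0.670. In the Dicer KO, H3K27me3 was highest at the far edge, 10 kb downstream of the start tile, with 51 reads there and 23 without Dnmt1. Without Dnmt1 it was highest 4 kb upstream of the start tile, with 29 reads there and 34 in the Dicer KO. The start tile had 13 and 11.

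Esrrb (ENSMUSG00000021255.10, chr12:87702067-87862578, forward strand) is the longest of the 9, with 86 tiles, and its H3K27me3 changed along its length. The annotation gives 7 transcripts, and 3 of them begin at an internal start, base 87762594, 60.5 kb after the annotated 5′ end. H3K27me3 was high from the edge of the window up to this point, apart from the tiles 32 and 34 kb after the start tile, with 18 and 14 reads in the Dicer KO. The 33 tiles before the tile of the internal start held 1745 reads in the Dicer KO and 1102 without Dnmt1, levels of 2.58 (2.46 to 2.71) and 2.08 (1.96 to 2.21). The tile of the internal start, which has 119 CpG, held 84 and 38 reads, levels of 4.11 and 2.37. The next tile was alike, with 82 and 38 reads. H3K27me3 was low beyond these 2 tiles, where the last 51 tiles were at 0.501 (0.459 to 0.546) and 0.537 (0.488 to 0.590). Esrrb thus held 24 of the 32 tiles above 2 times the genome mean among the 191 tiles of the 9 genes in the Dicer KO. Such tiles made up 16.8% of the 191 and 9.36% of all tiles in the genome.

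The difference between genotypes lay in the same stretch. H3K27me3 over the whole window was 1.38 (1.33 to 1.44, 2434 reads) in the Dicer KO and 1.17 (1.12 to 1.23, 1617 reads) without Dnmt1, a log2 change of -0.24 (-0.33 to -0.15). It was -0.31 (-0.42 to -0.20) before the tile of the internal start, -0.79 (-1.39 to -0.22) in that tile, and 0.10 (-0.09 to 0.29) in the last 51 tiles. This split was made after the profile had been seen. Single tiles could differ from the stretch, as the annotated start tile had 40 and 45 reads, a change of 0.52 (-0.13 to 1.17). A fall in H3K27me3 was not particular to Esrrb, since the lineage factors described below had a median change of -0.34. H3K9me2 was also higher before the internal start (1.17 and 1.32) than in the last 51 tiles (0.605 and 0.725), and in the CpG-rich tile of the internal start it had 1 and 3 reads. H3K9me3 was near the genome mean in both stretches (1.01 and 1.13 before, 0.897 and 0.901 in the last 51 tiles). Tiles above 2 times the mean lay 94, 96 and 98 kb after the start tile in the Dicer KO, with 28, 37 and 39 reads there and 19, 34 and 29 without Dnmt1. Without Dnmt1 such tiles lay at 38, 96 and 98 kb, and the one at 38 kb was highest, with 35 reads there and 21 in the Dicer KO. The promoter of the internal start is printed with CpG in capitals. It holds 7 CpG, the same number as the promoter of the annotated 5′ end (chr12:87762344-87762643, NCBIM37, forward strand).
Esrrb internal promoter: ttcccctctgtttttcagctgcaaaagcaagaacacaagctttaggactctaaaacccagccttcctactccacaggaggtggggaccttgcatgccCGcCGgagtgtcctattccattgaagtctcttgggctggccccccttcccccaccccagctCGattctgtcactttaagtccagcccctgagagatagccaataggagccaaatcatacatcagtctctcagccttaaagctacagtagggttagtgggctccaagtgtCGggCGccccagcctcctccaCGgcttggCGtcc

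**Figure D2:**
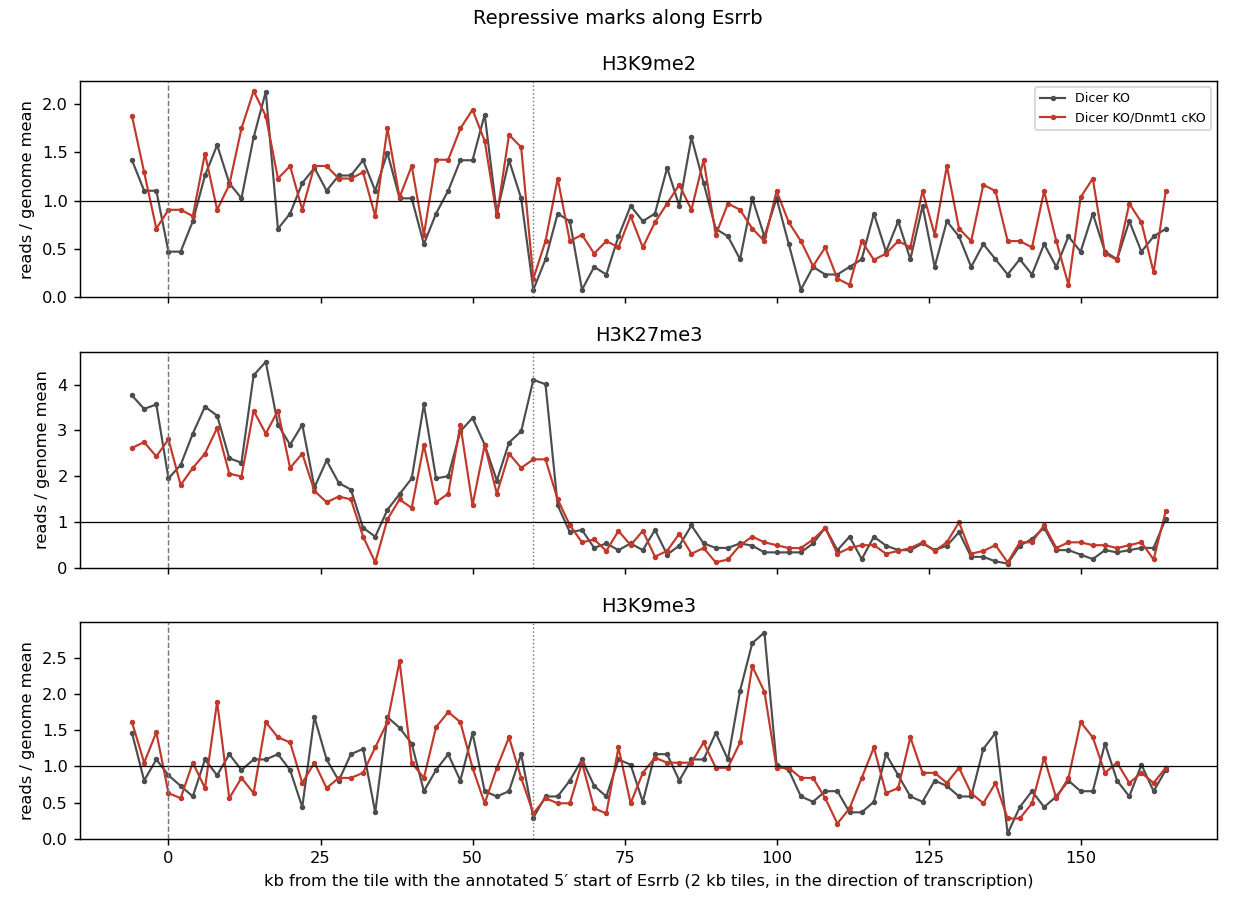
Level of each mark in each 2 kb tile along Esrrb (y axis, reads over the genome mean) against the distance from the tile with the annotated 5′ start in kb, in the Dicer KO (grey) and the Dicer KO/Dnmt1 cKO (red), with a dashed line at the annotated 5′ start and a dotted line at the tile of the internal start. H3K27me3 averages 2.58 and 2.08 in the 33 tiles before the tile of the internal start and 0.501 and 0.537 in the last 51 tiles.

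Prdm14 (ENSMUSG00000042414.7, chr1:13103538-13117244, reverse strand) carried its H3K27me3 at the 5′ end. The start tile (chr1:13116001-13118000, 83 CpG) held 73 and 56 reads, levels of 3.57 (2.80 to 4.49) and 3.49 (2.64 to 4.54). The next tile into the gene held 94 and 50, and the tile upstream 52 and 36. Together these 3 tiles were at 3.57 and 2.95, and the other 10 tiles of the window at 0.782 (0.665 to 0.913) and 0.861 (0.723 to 1.02). At the same 3 tiles H3K9me2 was low, 0.342 and 0.410, while the other 10 tiles stood at 1.03 and 1.10. The promoter is shown because it lies within these tiles, and it holds 10 CpG, in capitals (chr1:13117195-13117494, NCBIM37, reverse strand).
Prdm14 promoter: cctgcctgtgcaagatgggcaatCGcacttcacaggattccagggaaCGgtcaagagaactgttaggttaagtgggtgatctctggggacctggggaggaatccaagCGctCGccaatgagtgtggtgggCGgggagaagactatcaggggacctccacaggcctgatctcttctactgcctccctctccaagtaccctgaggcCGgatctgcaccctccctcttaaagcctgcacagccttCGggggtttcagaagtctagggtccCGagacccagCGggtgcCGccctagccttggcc

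Tfcp2l1 (named Tcfcp2l1 in the annotation, ENSMUSG00000026380.9, chr1:120524522-120581744, forward strand) was low in H3K27me3, 0.325 (0.285 to 0.370) and 0.342 (0.296 to 0.394). H3K9me3 went from 1.09 (1.00 to 1.19, 523 reads) in the Dicer KO to 0.880 (0.799 to 0.966, 439 reads) without Dnmt1, and H3K9me2 from 0.827 (0.744 to 0.916, 367 reads) to 1.04 (0.959 to 1.13, 564 reads). The intervals of the 2 genotypes did not overlap for either mark. One tile in the gene, 8 kb from the start tile (chr1:120532001-120534000), held 44 H3K9me3 reads in the Dicer KO and 10 without Dnmt1, levels of 3.22 (2.34 to 4.32) and 0.701 (0.336 to 1.29). Without that tile, left out after its value was seen, the H3K9me3 change was -0.22 (-0.41 to -0.03) in place of -0.31 (-0.50 to -0.13). That tile had 12 and 20 reads of H3K9me2, levels of 0.946 and 1.29, and 6 and 5 reads of H3K27me3, levels of 0.293 and 0.312.

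**Figure D3:**
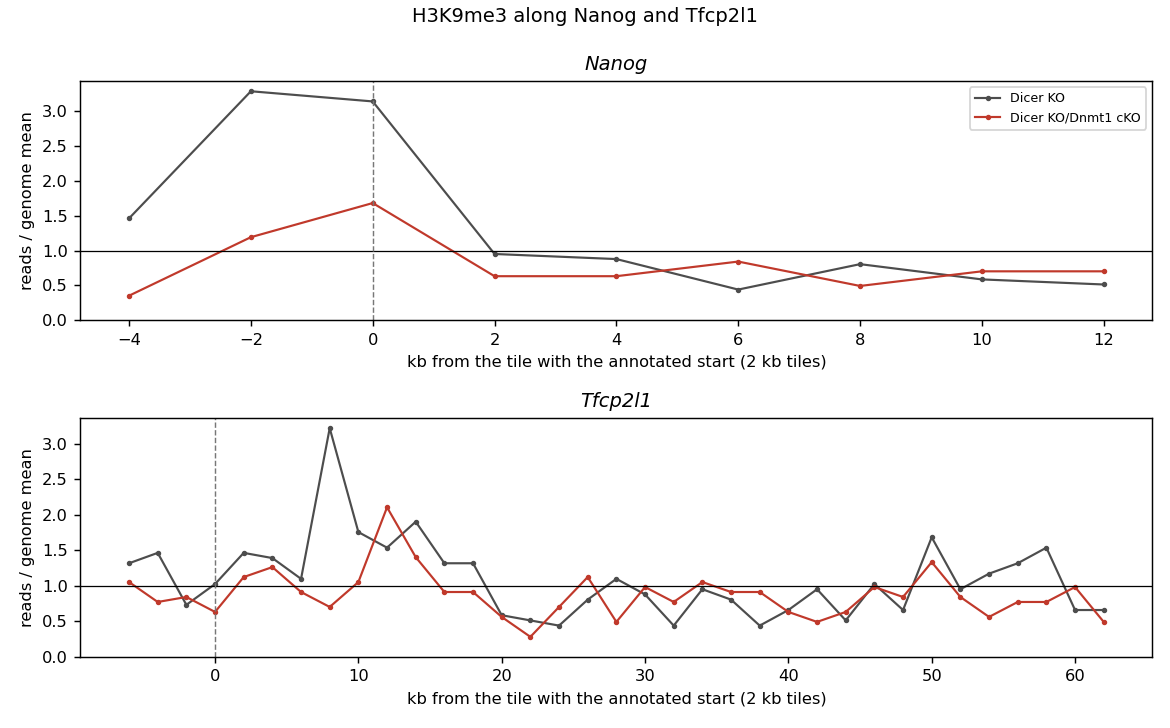
H3K9me3 level in each 2 kb tile along Nanog (top) and Tfcp2l1 (bottom) against the distance in kb from the tile with the annotated start (dashed line), in the Dicer KO (grey) and the Dicer KO/Dnmt1 cKO (red). The Nanog start tile stands at 3.14 and 1.68, and the Tfcp2l1 tile at 8 kb stands at 3.22 and 0.701.

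Lin28a (ENSMUSG00000050966.2, chr4:133559245-133574756, reverse strand) had the highest H3K27me3 of the 9 genes, 1.54 (1.40 to 1.70, 410 reads) in the Dicer KO and 1.41 (1.25 to 1.58, 294 reads) without Dnmt1. As at Prdm14, it was concentrated at the start. The start tile (chr4:133574001-133576000, 76 CpG) held 87 and 73 reads, levels of 4.25 (3.41 to 5.24) and 4.55 (3.57 to 5.73), at percentiles 93.6 and 97.5 of start tiles. Including the tiles on either side, the level was 3.50 and 2.85, and over the other 10 tiles it was 0.953 and 0.979. The tile upstream of the start was also the highest in H3K9me2, with 30 and 35 reads (2.37 and 2.27), while the start tile itself had 4 and 15. Dhdds and Gm13061 overlap the window.

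Tdgf1 (ENSMUSG00000032494.8, chr9:110842114-110848662, reverse strand) had the lowest H3K27me3 of the 9, 0.250 (0.183 to 0.333) from 46 reads and 0.298 (0.216 to 0.401) from 43. H3K9me2 was 0.578 and 0.568, and H3K9me3 was 0.593 and 0.631. The start tile held at most 5 reads of H3K9me2 or H3K9me3 in any library and 12 and 5 reads of H3K27me3. The level of that tile did not exceed 0.586 for any mark.

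Ranked by H3K9me2, the 9 genes kept nearly the same order in both genotypes. Prdm14, Tfcp2l1, Esrrb and Lin28a led, their intervals overlapping one another within each genotype, and Klf4, Tdgf1, Pou5f1, Nanog and Sox2 followed in that order in both. The intervals of Klf4, Tdgf1, Pou5f1 and Nanog also overlapped one another within each genotype, and that of Sox2 overlapped that of Nanog. In the Dicer KO the Klf4 interval (0.463 to 0.755) overlapped those of Lin28a, Prdm14 and Tfcp2l1 as well. The H3K27me3 order was the same in both genotypes, from Lin28a, Prdm14, Esrrb and Klf4 through Sox2 and Pou5f1 to Tfcp2l1, Nanog and Tdgf1. Among the Dicer KO levels the intervals of Lin28a, Prdm14 and Esrrb overlapped, those of Esrrb and Klf4 did not, those of Klf4 and Sox2 did, and Pou5f1 stood apart from Sox2 above it and from Tfcp2l1, Nanog and Tdgf1, which overlapped one another. For H3K9me3, Nanog led in the Dicer KO and stood at rank 3 without Dnmt1, where Esrrb (0.978), Tfcp2l1 (0.880) and Nanog (0.802) had overlapping intervals.

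Nanog H3K9me3 was the only change past 1.5-fold among the 9 genes, at -0.74 on the log2 scale (-1.11 to -0.38). Of the 21121 protein-coding windows with at least 100 H3K9me3 reads over both libraries, 0.838% changed by more than 1.5-fold and 0.516% fell by more than that. The count rests on the width of the window. With the gene bounds alone the change was -0.54 and with 10 kb on both sides -0.53, both short of 1.5-fold, which is 0.585 on this scale. For H3K9me2, 7 of the 9 windows had at least 100 reads (Nanog and Sox2 did not) and 0 passed 1.5-fold, against 2.47% of windows tested. For H3K27me3, 8 had at least 100 reads (Tdgf1 did not) and 0 passed, against 3.2%.

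Smaller differences whose interval left out 0 occurred in 4 further cases: Esrrb H3K9me2 (0.22, 0.10 to 0.35) and H3K27me3 (-0.24), and Tfcp2l1 H3K9me2 (0.34, 0.14 to 0.53) and H3K9me3 (-0.31). These are the 2 genes with most tiles and reads. The interval left out 0 in 21.4% of all H3K9me2 windows tested, 28.4% of H3K27me3 windows and 10.3% of H3K9me3 windows. Across all genes the median H3K9me2 change was 0.10, and relative to it Esrrb stood at 0.12 and Tfcp2l1 at 0.23. The Esrrb interval included that median of 0.103 (lower limit 0.096), and the Tfcp2l1 interval did not (lower limit 0.143). Of the 7 genes with enough H3K9me2 reads, 4 were higher and 3 lower without Dnmt1 (69.6% of all windows were higher), and 2 of 8 were higher for H3K27me3 (59.6%) and 4 of 9 for H3K9me3 (55.3%). The remaining changes had intervals that included 0 and ran from -0.31 for Pou5f1 H3K9me3 (-0.81 to 0.19) to 0.53 for Sox2 H3K9me2 (-0.28 to 1.38).

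**Figure D4:**
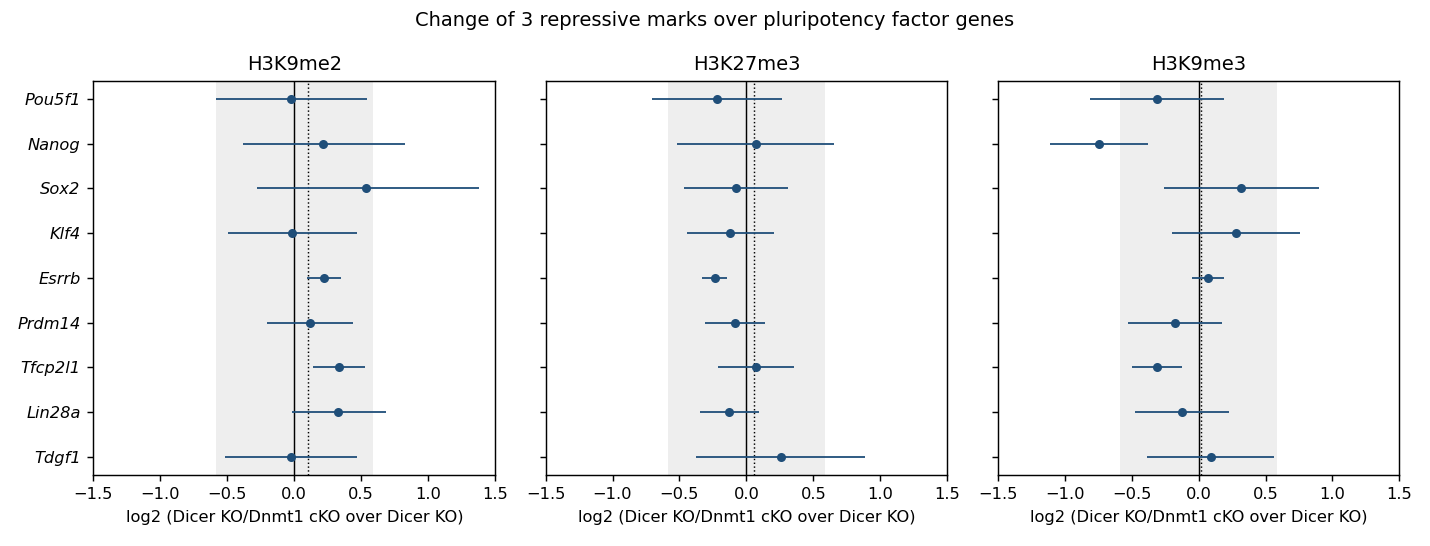
Change of each mark over the 9 genes (x axis, log2 of the Dicer KO/Dnmt1 cKO over the Dicer KO), with bars for the 95% counting interval, grey shading within 1.5-fold and a dotted line at the median of all protein-coding windows with at least 100 reads. The Nanog H3K9me3 point at -0.74 is the only one outside the shading.

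Summed over all 191 tiles, H3K9me2 was 0.726 in the Dicer KO and 0.849 without Dnmt1, a change of 0.23 (0.14 to 0.31), which was also 0.23 without Esrrb. The median H3K9me2 change over all genes was 0.10. Apart from Esrrb, only Tfcp2l1 (367 and 564 reads) had an H3K9me2 interval above 0. Nanog, Sox2, Lin28a and Prdm14 were higher with intervals that included 0. Pou5f1, Klf4 and Tdgf1 were between -0.03 and -0.01, also with intervals that included 0. The H3K9me2 sum thus does not stand for a rise at each gene. The summed H3K27me3 change was -0.17 (-0.24 to -0.10), and it was -0.06 (-0.18 to 0.05) over the 105 tiles outside Esrrb. The summed H3K9me3 change was -0.08 (-0.16 to 0.00) with Esrrb and -0.23 (-0.35 to -0.11) without it. Outside Esrrb, only Tfcp2l1 (523 and 439 reads) and Nanog (165 and 103) had H3K9me3 intervals below 0. Sox2, Klf4 and Tdgf1 were higher, and Pou5f1, Lin28a and Prdm14 lower with intervals that included 0. The H3K9me3 sum thus does not stand for a fall at each gene.

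At the start tiles, H3K9me2 was below 0.5 times the genome mean in 8 of the 9 genes in the Dicer KO, all but Pou5f1, where 57.1% of all genes were. It was so in 5 of 9 without Dnmt1 (50.8% of all genes). In the Dicer KO, Nanog, Esrrb and Prdm14 had 6 reads each (0.473, 0.174 to 1.03), so these counts rest on few reads. H3K27me3 start tiles exceeded 2 times the genome mean at Lin28a and Prdm14 in the Dicer KO (20% of all genes) and at these 2 and Esrrb, from 1.95 to 2.81, without Dnmt1 (16.3%). Nanog was alone above 2 in H3K9me3 in the Dicer KO, a level passed by 1.35% of start tiles, and 0 of 9 passed it without Dnmt1 (1.4%).

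The windows were compared with the 50 kb on either side of each. With Dnmt1 present, 6 of 9 windows were below their surroundings in H3K9me2 and 7 of 9 in H3K27me3 and in H3K9me3, against 57.8%, 58% and 63.3% of all genes. In the Dicer KO/Dnmt1 cKO the counts were 7, 7 and 8, against 56.4%, 57.4% and 62.8%. The widest gap was that of Sox2 H3K9me2, 0.207 in the window and 0.970 (0.895 to 1.05) around it in the Dicer KO. Klf4 stood at 0.596 in surroundings at 1.33. Tdgf1 H3K27me3 was 0.250 with 0.687 around it. Opposite cases were Prdm14 H3K27me3 (1.42 in the window, 0.576 around it), Lin28a H3K27me3 (1.54 and 0.907) and Nanog H3K9me3 (1.34 and 0.676). Nanog was closer to its surroundings without Dnmt1, at 0.802 and 0.658. The surroundings of Esrrb were richer in H3K27me3 than its window, 2.56 and 1.38 in the Dicer KO.

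Other gene lists set these levels in context. For H3K27me3 in the Dicer KO, 19 transcription factors of the germ layers and their derivatives had a median level of 3.64, with a lowest value of 1.88, above the highest of the 9 pluripotency genes. Neurog2 (6.58), which drives neurogenesis, and Foxa2 (5.63), an endoderm factor, were highest. The 14 genes of formative and primed pluripotency had a median of 2.32, led by Pou3f1 (5.69), the OCT6 gene of the epiblast and neural lineage, and Fgf8 (4.97). In 30 genes of the wider pluripotency network the median was 0.414, in 15 housekeeping genes 0.209 and in all protein-coding genes 0.733, beside 0.806 for the 9. The 10 fibroblast markers, included because feeders may be present, had a median of 1.87. In the Dicer KO/Dnmt1 cKO the lineage factors stood at 2.68, with a median change of -0.34 and 18 of 19 lower (59.6% of all windows were higher). Among the pluripotency genes with at least 100 reads, 6 of 8 were lower, with a median change of -0.10. The median over all 9, -0.08, ran from -0.14 to 0.07 over the settings tried. Only Pou5f1, Esrrb and Tfcp2l1 kept the sign of their H3K27me3 change in all 7 alternatives. No lineage factor fell by more than 1.5-fold, and of all 20615 windows with at least 100 H3K27me3 reads only 117 did. H3K9me2 and H3K9me3 separated the lists less. The median H3K9me2 level in the Dicer KO was 0.358 in the housekeeping list, 0.498 in the formative and primed list, 0.537 in the wider network, 0.789 in the lineage factors and 1.01 in the fibroblast markers, where Col1a2 (1.49), a collagen gene, was highest, and the 9 genes lay within that range at 0.596. For H3K9me3 the medians of the other lists ran from 0.539 in the housekeeping list to 0.946 in the fibroblast markers, and the highest member of any of them, Lum (1.33), a proteoglycan gene, stood beside Nanog at 1.34.

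**Figure D5:**
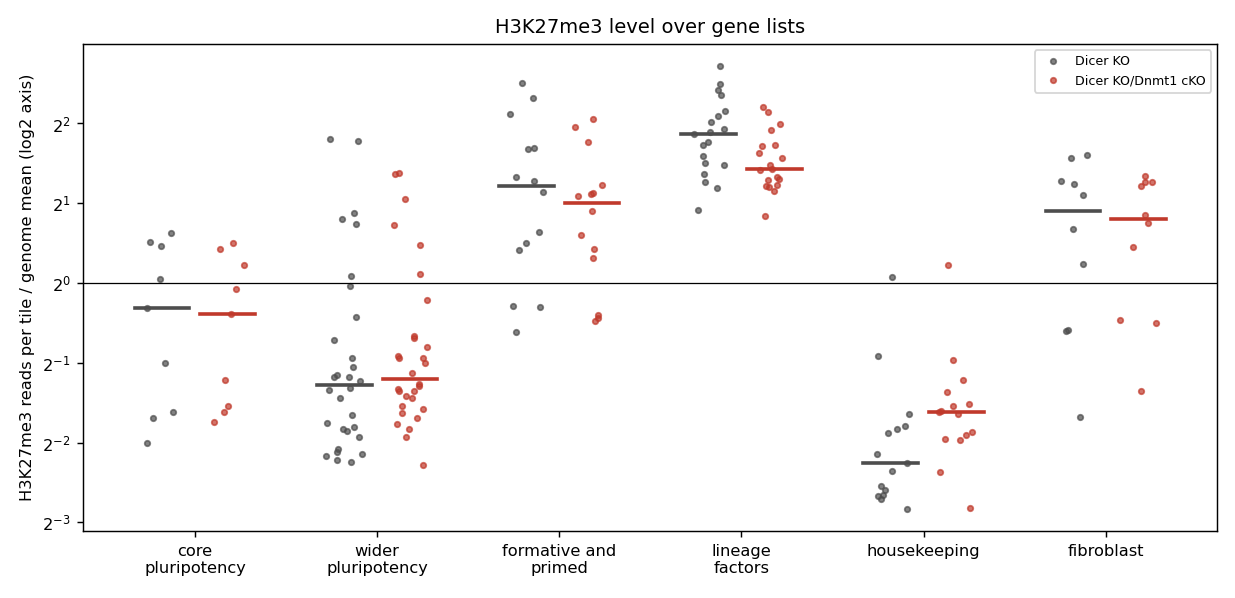
H3K27me3 level of each gene (y axis, reads per tile over the genome mean, log2 axis) in 6 gene lists, in the Dicer KO (grey) and the Dicer KO/Dnmt1 cKO (red), with bars at the medians. The core pluripotency genes lie between 0.250 and 1.54 in the Dicer KO, below the lowest lineage factor at 1.88.

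In the wider pluripotency network, 6 of 30 genes were above the genome mean in H3K27me3 in the Dicer KO (37.8% of all genes). Dppa3 (Stella, 3.50 and 2.57, change -0.44, -0.64 to -0.25), which lies upstream of Nanog on chromosome 6, and Gbx2 (3.44 and 2.60, change -0.41, -0.59 to -0.22), a LIF-responsive factor, were highest. They were followed by Tcl1 (1.83 and 2.08), a co-activator of AKT. Klf5, a KLF-family factor of the naive network, differed most in the other direction among genes with at least 100 reads, from 0.395 to 0.619 (0.65, 0.27 to 1.03), and Zfp42 (REX1) went from 0.281 to 0.416 (0.57, 0.08 to 1.05). Klf5 was the only 1 of the 28 genes with at least 100 H3K27me3 reads past 1.5-fold (3.2% of all windows), and 19 of the 28 were higher (59.6% of all windows). For H3K9me2, Nodal, the ligand that CRIPTO serves, was the only gene past 1.5-fold among 28 (2.47% of all windows), from 0.402 to 0.609 (0.60, 0.09 to 1.12), and 21 were higher (69.6% of all windows). The LIF receptor gene Lifr went from 0.651 to 0.911 (0.49, 0.29 to 0.69). For H3K9me3, Dppa5a, which encodes an RNA-binding protein of ESCs, was the only gene past 1.5-fold among 29 (0.838% of all windows), from 0.763 to 0.491 (-0.64, -1.19 to -0.09), the same direction as Nanog.

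Over the 6 libraries together, the protein-coding genes whose levels were nearest to the median profile of the 9 were Cdr2l, Gm572 and Acd, with a root mean square log2 difference of 0.094, 0.095 and 0.095 among 18818 genes with at least 50 reads in every library. The windows of the 9 genes had a median GC content of 47.0% and 15.1 CpG per kb, against 44.6% and 11.5 over all genes. Sox2 (28.6 CpG per kb) and Klf4 (25.7) were at percentiles 98.8 and 97.6, and Tfcp2l1 (8.29) at percentile 27.5.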

How the data were processed

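ChIP-seq covered 3 repressive marks in 2 genotypes of ESCs, 1 library each. Per the methods, the authors used Trim Galore for trimming and Bowtie2 for mapping against Ensembl v67 NCBIM37, dropped reads of MAPQ under 20, and deposited per tile the log2 of observed reads over those expected from an even spread. Tiles are 2 kb in the deposited table and 1 kb in the methods. Discarding reads of low MAPQ can lower values where copies exist elsewhere, as of Nanog, Pou5f1 and Tdgf1. No input library and no repeat annotation was used, and removal of duplicates is not described for ChIP-seq. The table had 25 value columns, and 19 that matched no label stayed out.

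The antilogs of the deposited log2 values were turned back into whole reads, using scipy 1.17.1, pandas 2.3.3 and numpy 2.4.6 under Python 3.11.15. Tiles without reads stand at 0.9 of a read, and at most 1 value per library lay more than 0.1 reads from a whole number. Plots used matplotlib 3.10.9. Gene bounds came from GENCODE for NCBIM37, whose 22 chromosomes had the lengths of the table. The median tile held 13 to 18 reads, which makes single tiles imprecise. Intervals are exact Poisson for levels and exact binomial for changes, and percentiles are among protein-coding genes. A change was called past 1.5-fold with at least 100 reads over both libraries. No test was made with 1 library per group. Scripts were tested on simulated data.

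The members and lists were chosen with earlier results of these data known. Named were the 9 genes, Dnmt1 and Dicer1, genes of the wider list with the 3 highest levels and the 3 largest changes per mark, genes of other lists with the 2 highest levels per mark, and the 3 nearest in profile. Not all of these are described. Of 20 lineage factors, 19 were found. Alternatives were other margins, dropping the tile with most reads, trimmed totals, medians over tiles, tiles with reads, other scalings, a GC correction and a 2-fold rule. Promoter sequences were read from the NCBIM37 genome.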

Additional observations from a re-analysis of the deposited data

How the results depend on the processing

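No paired analysis was possible because every group holds 1 library. Of 81 recomputed medians and counts, 71 stayed within the counting interval of the median gene, or within 1.5 times the count, and 10 did not. The median H3K27me3 level in the Dicer KO, 0.806, was 0.505 with the gene bounds alone, 1.29 with a 10 kb margin, 0.593 without the tile with most reads in each window and 0.553 as a median over tiles, which is relative to the genome's median tile with reads. Without Dnmt1 (the Dicer KO/Dnmt1 cKO) the 10 kb margin gave 1.11 for H3K27me3 in place of 0.764 and 0.791 for H3K9me2 in place of 0.590. The median over tiles gave 0.462 for H3K9me2 in the Dicer KO in place of 0.596. The count of 1 gene past 1.5-fold in H3K9me3 was 0 with the gene bounds alone, with the 10 kb margin and with a 2-fold rule. The cause was not tested, apart from the construction of each setting. Scaling, trimmed totals and the GC correction moved none of these results outside those limits. The scalings shifted changes by 0.02 to 0.11 and the GC correction by at most 0.13. These shifts are small beside most counting intervals, so staying within the limits says little about stability. Of 188 recomputed changes of single genes, 185 stayed within their counting interval, as did 268 of 324 levels. The change of Nanog H3K9me3 ran from -0.77 to -0.53 over 7 settings. Chosen after seeing the data, leaving out its start tile and the tiles upstream gave -0.06. Depth limits what 9-tile windows can show, since windows with under 100 reads had intervals wider than 1 log2 unit.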
